A study of Homo sapiens with 12 samples.

Results

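Ribosomal proteins of the cytosolic ribosome were followed in HGC27 cells, an established human gastric carcinoma line, with and without knockdown of FTO, a demethylase that removes N6-methyladenosine (m6A) from RNA. The genes were chosen by symbol: RPL or RPS, a number and at most a short suffix, in the authors' table of differential m6A peaks or in either of their peak lists. This gave 43 genes (27 of the large subunit, RPL, and 16 of the small subunit, RPS) of 18329 symbols in those tables. They are a part of the family, because 82 protein-coding symbols of the RefSeq table follow the same pattern and 29 of these, among them RPL11, RPL22L1, RPL39L, RPS27L, RPS4Y1 and RPS4Y2, had no peak in the files. The other 10, including RPL28, RPL3L, RPL5 and RPL26L1, were reached only through peaks listed under a neighbouring symbol.

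A ribosome joins a small subunit, which reads the messenger RNA, to a large subunit, which forms the peptide bond, and each holds a fixed set of proteins in equal numbers. Cells therefore make these proteins together, mostly from short, abundant mRNAs that begin with a cytidine followed by a run of pyrimidines, the terminal oligopyrimidine (TOP) motif, through which the mTOR pathway and the protein LARP1 set their translation. m6A is read with antibodies: fragments pulled down (IP) are compared with untreated fragments (input), and a peak is a stretch where IP exceeds input.

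The 12 libraries were 3 IP and 3 input from control cells, whose genotype is labelled WT, and 3 IP and 3 input from cells with FTO knockdown, whose genotype is labelled KO. All came from poly(A) RNA of the same line, broken into short fragments and pulled down with an m6A antibody from Synaptic Systems. The labels do not name the hairpin or the control construct, and do not say whether libraries came from separate cultures, so a p-value here reflects the scatter of these libraries alone and that scatter may be technical. FTO itself was listed at 5.48, 5.68 and 5.52 FPKM (a fragment density scaled for transcript length and library size) in the control inputs and at 0.786, 0.830 and 0.765 FPKM in the knockdown inputs, 7.00-fold lower after knockdown. FPKM were given for the 6396 genes with a differential m6A peak and summed to between 74289 and 86902 per library, so the depth in reads is unknown. In that selected table the gastric epithelial markers had 1 of 11 genes (MUC1, not called different), the mesenchymal markers 2 of 6 (COL1A1 lower and THY1 higher after knockdown), and the immune and endothelial markers none, so the labelled cell type could not be checked fully.

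Starts of the genes are shown first, because the TOP motif is a feature that the choice of members did not use. RefSeq promoter windows (GRCh38.p14) were matched for 38 of the 43 members. A start at C followed by pyrimidines, at least 5 in all counting the C, was found in 26 of them (68.4%), 16 of 23 RPL and 10 of 15 RPS genes, against 5.14% of the 27305 genes in the table. The median run of the members was 6 bases and the longest, in RPL39, was 19. Each line gives 30 bases on the gene's own strand, with the annotated start as the 11th base and the run in capitals; where a gene had several starts, the longest run is shown. The members with input FPKM that have the motif come first.
RPL13 (chr16:89560672-89560701, plus strand): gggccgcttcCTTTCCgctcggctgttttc
RPL14 (chr3:40457329-40457358, plus strand): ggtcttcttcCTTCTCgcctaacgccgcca
RPL29 (chr3:51995876-51995905, minus strand): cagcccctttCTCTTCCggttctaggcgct
RPL39 (chrX:119791611-119791640, minus strand): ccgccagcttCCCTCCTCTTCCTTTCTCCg
RPL41 (chr12:56116623-56116652, plus strand): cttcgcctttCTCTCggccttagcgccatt
RPS14 (chr5:150449720-150449749, minus strand): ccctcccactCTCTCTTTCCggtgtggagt
RPS18 (chr6:33272065-33272094, plus strand): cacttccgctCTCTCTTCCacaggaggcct
RPS24 (chr10:78033853-78033882, plus strand): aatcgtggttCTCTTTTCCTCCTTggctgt
RPS25 (chr11:119018324-119018353, minus strand): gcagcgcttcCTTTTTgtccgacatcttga
RPS27A (chr2:55232678-55232707, plus strand): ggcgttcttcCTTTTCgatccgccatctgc
The annotated starts of RPS15 and RPS28, which also had FPKM, and of the paralog RPL7L1 lacked the motif.
RPS15 (chr19:1438386-1438415, plus strand): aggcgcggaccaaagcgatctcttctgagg
RPS28 (chr19:8321486-8321515, plus strand): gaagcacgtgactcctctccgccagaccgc
RPL7L1 (chr6:42879606-42879635, plus strand): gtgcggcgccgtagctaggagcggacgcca

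In the input RNA, 7 of the 14 members with FPKM were lower after FTO knockdown and none was higher (limma on log2(FPKM + 1), two-sided, Benjamini-Hochberg adjusted over all 4515 genes tested, threshold 0.05). RPS28, RPS24 and RPS27A of the small subunit had the largest decreases. Over all genes tested, 37.9% were called lower and 24.5% higher, 62.4% in all, so a count of 7 of 14 lower is read against a background in which lower calls were common. The median change of the 14 members was -0.12 and that of all tested genes -0.07 on the log2 scale. All 14 passed the filter of a mean of at least 1 FPKM, but they are in the table because their m6A peak differed, and they stand for no other member. With 3 libraries a group, 8 members had control and knockdown values that did not overlap with knockdown lower, and 1, RPL14, with knockdown higher; the background was 40.5% and 27.3% of all genes, 67.8% in all. By the q in the authors' deposited table, 4 of the 14 were under 0.05 (RPS28, RPS24 and RPS27A lower, RPL14 higher), against 48.9% of the genes tested.

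Among the small-subunit genes, RPS28 encodes a short protein of the small-subunit head and changed the most. It was at 44.7, 43.8 and 51.2 FPKM in the control inputs and at 27.9, 27.9 and 28.4 FPKM in the knockdown inputs. Every knockdown library was below every control library, a change of -0.71 ± 0.06 (SE) on the log2 scale (limma, adjusted p = 5.42e-05). RPS24, a small-subunit protein whose gene is mutated in some families with Diamond-Blackfan anaemia, was at 19.1, 18.8 and 16.2 FPKM in control and at 12.9, 13.2 and 12.01 FPKM after knockdown. Its groups did not overlap, and its change was -0.47 ± 0.07 (SE; limma, adjusted p = 0.000565). RPS27A encodes a fusion of ubiquitin with a small-subunit protein. It was at 33.1, 27.5 and 27.6 FPKM in control and at 20.2, 24.8 and 19.9 FPKM after knockdown, a change of -0.43 ± 0.10 (SE; limma, adjusted p = 0.0059) with the knockdown 2 library nearest to control. These 3 genes were called lower under each of the 13 settings tried, median-centring, quantile scaling and leaving out each library included.

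Smaller decreases were seen in RPS18 and RPS14, both proteins of the small subunit. RPS18 was at 174, 161 and 171 FPKM in control and at 141, 149 and 146 FPKM after knockdown, with a change of -0.21 ± 0.05 (SE; limma, adjusted p = 0.00449). RPS14, whose loss on one chromosome underlies the anaemia of the 5q deletion syndrome, was at 147, 140 and 150 FPKM in control and at 130, 132 and 131 FPKM after knockdown. Its change was -0.15 ± 0.04 (SE; limma, adjusted p = 0.015), and in both genes the groups did not overlap. Centring each library on its median ended both calls, at adjusted p = 0.0593 for RPS18 and 0.327 for RPS14. RPS14 also lost the call without control 1 (adjusted p = 0.0516) and without knockdown 3 (adjusted p = 0.0518). RPS25, which some viral internal ribosome entry sites need, was at 128, 110 and 116 FPKM against 104, 116 and 113 FPKM, and RPS15, a protein of the small-subunit head, at 93.5, 91.7 and 109 FPKM against 102, 95.02 and 102 FPKM. Their groups overlapped and neither passed the test (limma, adjusted p = 0.259 and 0.78).

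Of the large-subunit genes, RPL13 and RPL29 were called lower. RPL13 was at 97.3, 94.9 and 106 FPKM in control and at 90.7, 85.5 and 90.6 FPKM after knockdown, a change of -0.16 ± 0.05 (SE; limma, adjusted p = 0.0298). RPL29 was at 247, 250 and 265 FPKM in control and at 230, 228 and 241 FPKM after knockdown, a change of -0.12 ± 0.05 (SE; limma, adjusted p = 0.0487). Both had groups that did not overlap and both lost the call under median-centring (adjusted p = 0.377 and 0.641). RPL29 also lost it without any of the 6 libraries in turn (adjusted p above the threshold each time), and RPL13 without control 1 or any of the 3 knockdown libraries. RPL37 was at 11.5, 10.7 and 10.5 FPKM in control and at 9.58, 10.2 and 10.3 FPKM after knockdown, and did not pass the test (limma, adjusted p = 0.0739).

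RPL41, which encodes a very short basic peptide and was the most abundant member, did not separate the groups: it was at 615, 570 and 600 FPKM in control and at 568, 604 and 614 FPKM after knockdown. RPL8, a core protein near the site of peptide bond formation, was at 236, 231 and 265 FPKM in control and at 243, 247 and 247 FPKM after knockdown. RPL39, which lines the tunnel through which the new protein leaves, was at 90.2, 81.1 and 91.4 FPKM in control and at 84.3, 83.6 and 91.3 FPKM after knockdown. In all 3 the groups overlapped. RPL14 was the single member with every knockdown library above every control library: 7.35, 7.09 and 6.54 FPKM in control against 7.78, 7.65 and 7.52 FPKM after knockdown, a change of 0.12 ± 0.05 (SE) that did not pass the test (limma, adjusted p = 0.0714). It passed under quantile scaling and under median-centring (adjusted p = 0.0125 and 0.00521), while RPL41 was called lower under quantile scaling (log2 change -0.15, adjusted p = 0.0208). The same scalings turned the split of all genes from 1107 higher and 1712 lower to 1425 and 1291 (quantile) and to 1507 and 1213 (median-centring), and the split of the members to 1 higher and 8 lower and to 1 higher and 3 lower.

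**Figure D1:**
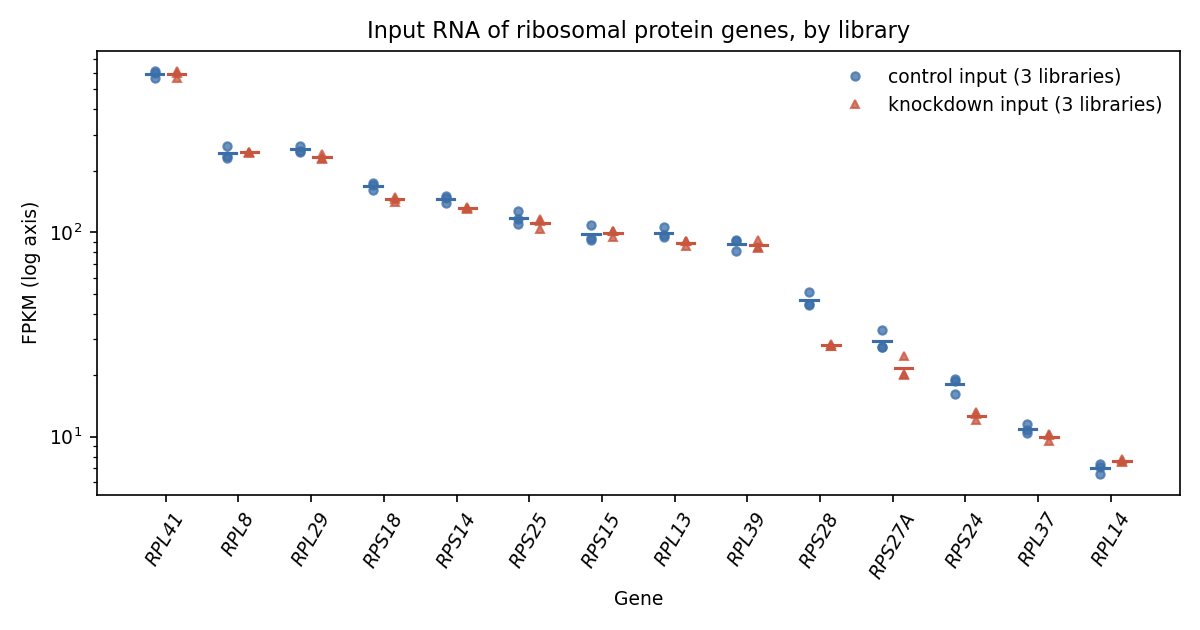
FPKM (log axis) of the 14 members in each of the 3 control and 3 knockdown input libraries, with short lines at the group means. Only RPS28, RPS27A and RPS24 stand apart by eye, with RPS28 near 28 FPKM in each knockdown library against 43.8 to 51.2 FPKM in control.

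**Figure D2:**
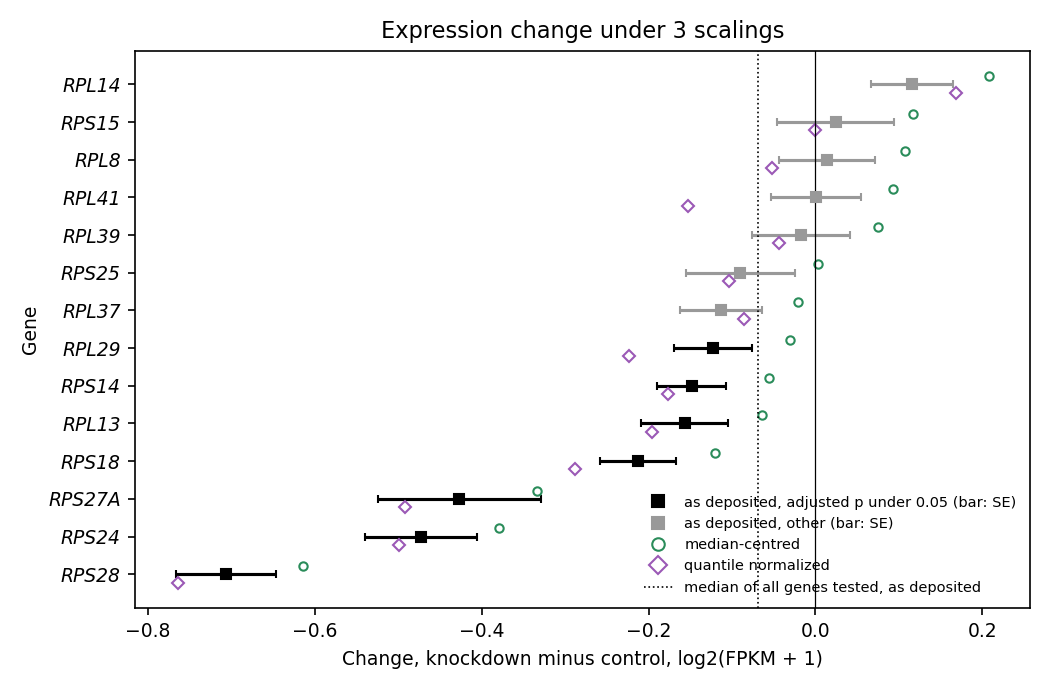
Change in log2(FPKM + 1), knockdown minus control, for the 14 members, with SE bars for the values as deposited (black where the adjusted p is under 0.05), open circles for median-centred and diamonds for quantile-normalized values, and a dotted line at the median of all tested genes (-0.07). RPS28, RPS24 and RPS27A stay well below 0 under each scaling, and the other members lie between -0.29 and 0.21.

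Levels in FPKM are scaled for transcript length, so genes can be compared roughly, as far as the length used suits each gene. The order ran from RPL41 (mean 595 FPKM in control) through RPL29 (254), RPL8 (244), RPS18 (169), RPS14 (146), RPS25 (118), RPL13 (99.3), RPS15 (98.1), RPL39 (87.5), RPS28 (46.6), RPS27A (29.4), RPS24 (18.03) and RPL37 (10.9) to RPL14 (6.99). The control libraries of RPL29 and RPL8 overlapped (SD of 9.52 and 18.3 FPKM), as did those of RPL13 and RPS15 (SD of 5.78 and 9.60 FPKM), so the order within these pairs is not beyond their spread. Ribosomal protein genes have many near-identical processed pseudogenes, and 230 control and 139 knockdown peaks were listed under symbols of such copies (153 and 94 symbols), so reads of these short genes can be split between copies and each level is uncertain to that extent. Of the 10 members with the TOP motif and FPKM, 6 were called lower (37.9% of all genes tested) and the median change of the 10 was -0.14 (-0.07 over all genes). Under median-centring, 4 of these 6, RPL13, RPL29, RPS14 and RPS18, were not called. The pair with a promoter window but no motif at the annotated start were RPS28, called lower, and RPS15, not called. RPL8 and RPL37 had FPKM but no promoter window, so their starts were not read. The motif was judged from the annotated start base alone, and a start a few bases away was not tried.

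The m6A peak lists, 1 per condition with replicates pooled or merged by the authors, held 65 control and 48 knockdown peaks under 39 and 28 member symbols. The lists name the gene with the nearest start, and they also give the gene on whose exons the peak was called. These differed for 11 of the control and 6 of the knockdown peaks. The strongest peak listed under a member, 23.3-fold in control and 36.7-fold after knockdown under RPL27, was called on the exons of its neighbour RUNDC1, and a peak of 15.8-fold and 24-fold listed under RPL7L1 was called on BICRAL. RPL15, RPL27 and RPS13 had only such peaks. Own-exon peaks, listed under a member and called on its exons, numbered 54 in control (35 genes) and 42 after knockdown (26 genes). A further 22 control and 12 knockdown peaks were called on exons of genes matching the pattern but listed under another symbol. On their exons, RPL13A and RPS28 had only peaks of this further kind. Counting instead every peak called on exons of a gene that matches the pattern gave 76 control peaks on 47 genes and 54 knockdown peaks on 33 genes.

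Enrichment over input, the authors' value, was low on these genes. The median over own-exon peaks was 2.90-fold in control and 3.77-fold after knockdown, against 6.11-fold and 7.05-fold over all 39492 control and 28888 knockdown peaks. In control, 35 of 54 own-exon peaks (64.8%) were under 4-fold, against 35.0% of all peaks, and after knockdown 21 of 42 (50%) against 26.6%. Peaks of 156 non-member genes of at least 50 FPKM had medians of 2.90-fold and 3.69-fold, a comparison added after the first values were seen. These 156 were drawn from the genes with a differential m6A peak, as FPKM were given for no others. Only 14 of the 43 members had such a peak. The exact value of 6.11-fold recurred in 1293 control peaks, the peak listed under RPL15 among them, so the control values are not evenly graded. The part of transcript abundance in the low values was not tested, and no test between conditions is possible with 1 list each.

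By position, 34 of the 54 own-exon control peaks (63.0%) lay in 3' UTRs, 11 (20.4%) in 5' UTRs and 9 (16.7%) in other exons, against 47.6%, 12.6% and 39.8% of all control peaks. The knockdown list had 23 (54.8%), 10 (23.8%) and 9 (21.4%), against 46.5%, 13.9% and 39.6% of all knockdown peaks. Of the 34 control peaks in 3' UTRs, 8 (23.5%) were on protein-coding transcripts, against 35.0% of all control peaks in 3' UTRs. On protein-coding transcripts alone the order turned. Of 21 own-exon control peaks there, 38.1% lay in 3' UTRs and 42.9% in 5' UTRs, against 49.9% and 28.3% of all such control peaks. After knockdown the shares were 23.5% and 47.1% of 17 peaks, against 44.5% and 28.3% of all such knockdown peaks. The peaks were short, with a median of 210.5 exonic bases in control against 330 over all control peaks, and of 211 after knockdown against 271. In the control list, the annotated transcript was a retained-intron form for 33.3% of own-exon peaks and for 17.0% of all. It was a processed transcript for 25.9% and 16.6%. Small-subunit genes had 10 of their 22 own-exon control peaks on retained-intron forms, and large-subunit genes 8 of 32. In the knockdown list the differences in retained-intron forms were smaller. Retained-intron forms held 21.4% of own-exon peaks and 17.5% of all, with 3 of 13 in small-subunit and 6 of 29 in large-subunit genes. Processed transcripts held 35.7% of own-exon knockdown peaks and 17.1% of all, a wider gap than in control.

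Peaks of the same gene in both lists were as common as in the background: 56.9% of the member peaks listed in control overlapped a knockdown peak by at least 1 exonic base (57.6% of all control peaks), and 87.5% of those listed after knockdown overlapped a control peak (88.7% of all knockdown peaks). By own-exon peaks, which leave out those listed under another symbol, 23 members had peaks in both lists. RPL10, RPL21, RPL29, RPL36A, RPL37A, RPL39, RPS15A, RPS18, RPS23, RPS26, RPS27 and RPS27A had them in the control list alone, with enrichments from 1.19-fold (RPS18) to 6.08-fold (RPL37A). RPL27A (2.04-fold and 2.51-fold), RPL35 (1.67-fold) and RPS4X (3.23-fold), the X-linked partner of the Y-linked RPS4Y genes, had them in the knockdown list alone. The knockdown list was shorter for all genes, so a peak missing from it does not show loss of m6A. The RPS4X interval lay wholly in the span of PIN4 and outside the RefSeq span of RPS4X, and the RPL37A blocks also lay outside their gene.

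The highest enrichments fell on few genes. RPL7L1, a paralog of RPL7 that takes part in ribosome assembly, had 5 control peaks, the highest of 20.6-fold (2581 to 2970 bases after the RefSeq start, control list alone) and 20.1-fold (6658 to 8783 bases, 3' UTR). After knockdown that 3' UTR stretch was listed as 2 peaks of 18.9-fold and 18.8-fold. RPS24 had 5 control peaks and 4 knockdown peaks, within 1790 to 3534 and 15336 to 22950 bases after its RefSeq start. In its 3' part, a peak of 7.05-fold in control was 13.6-fold after knockdown, a peak of 15.3-fold was listed in control alone, and the most distal was 9.93-fold in the control list and 5.20-fold in the knockdown list. RPL37 had 3 peaks in each list, of 8.89-fold, 8.22-fold and 1.78-fold in control and of 22-fold, 17.3-fold and 2.83-fold after knockdown, and the first 2 share bases. RPL13 had 1 peak at the same 630 bases of its 3' UTR in both lists, 10.3-fold and 10.7-fold. RPL41 had 1 control peak of 5.74-fold over 838 exonic bases, 137 to 1244 bases after its start, and within that stretch 2 knockdown peaks of 1.85-fold and 4.06-fold.

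**Figure D3:**
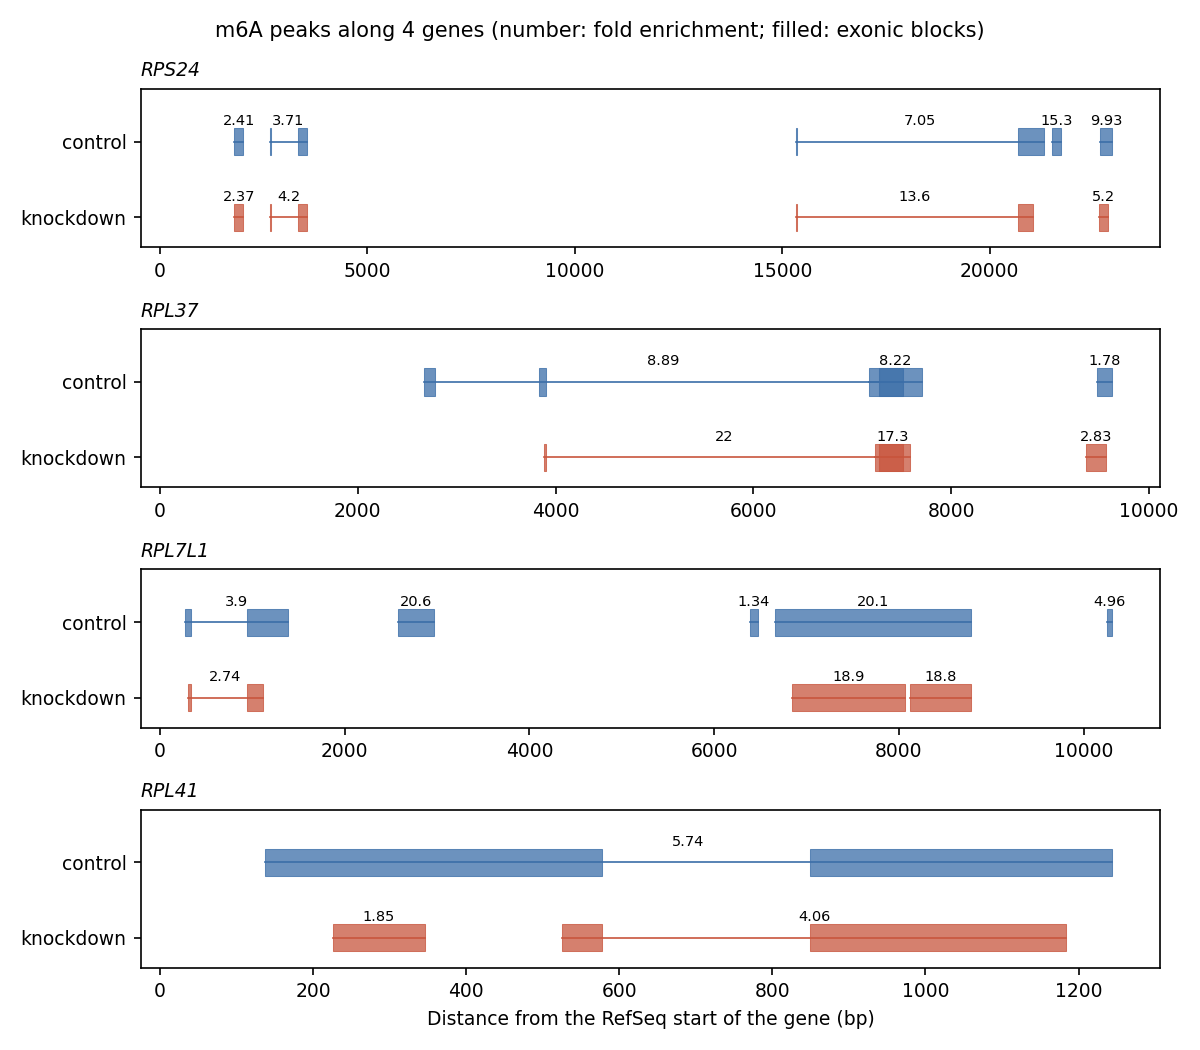
Peaks called on RPS24, RPL37, RPL7L1 and RPL41 in the control (upper) and knockdown (lower) lists, by distance in bp from the RefSeq start; filled boxes are exonic blocks, thin lines join blocks of 1 peak and numbers are the authors' fold enrichments. The 15.3-fold peak of RPS24 and the 20.6-fold peak of RPL7L1 have no counterpart in the knockdown list.

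Among members without FPKM, RPL30 had a 13.7-fold 5' UTR peak in control and peaks of 5.26-fold and 6.56-fold after knockdown, all upstream of its RefSeq start. RPL4 had an 11.2-fold 3' UTR peak in control against 7.88-fold and 2.36-fold after knockdown, and RPL24 a 10.4-fold peak against 2.82-fold, in the span of a second annotated gene. RPS29 reached 10.8-fold in control and 9.22-fold after knockdown, in peaks listed under the pseudogene RPL32P29 more than 20 kb from its start; at its own 5' UTR it had 7.13-fold in control and 4.65-fold and 4.25-fold after knockdown. RPL31 had 5.45-fold in control and 6.06-fold after knockdown. RPL10L, a retrotransposed copy of RPL10 made mainly in the testis, had 4.58-fold and 5.46-fold. The highest tops by called gene in the knockdown list also included RPL28 (16.6-fold, 9.09-fold in control), whose peaks are listed under a microRNA. The paralog RPL26L1 had 6.24-fold in control and 3.89-fold after knockdown. RPL3L, a paralog of RPL3 made in muscle, had peaks of 6.62-fold and 9.93-fold in the control list alone, listed under MSRB1. Over the 30 genes with a peak called on their exons in both lists, the highest peak was higher after knockdown in 14 and higher in control in 16.

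**Figure D4:**
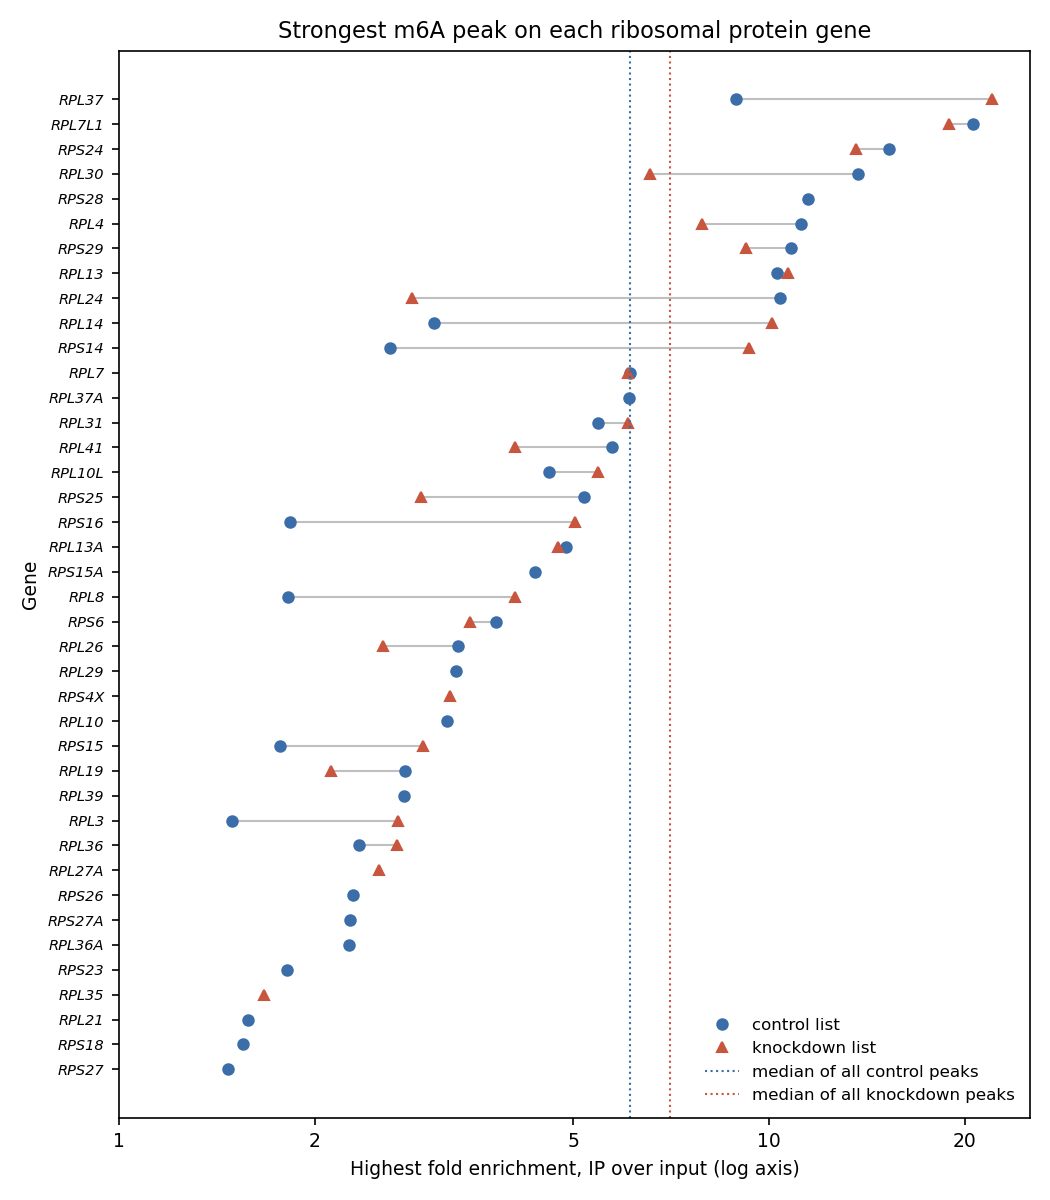
Highest fold enrichment of any peak called on each of 40 member genes (log axis), control list (circles) and knockdown list (triangles), joined where both lists had a peak; dotted lines are the medians of all control (6.11) and knockdown (7.05) peaks. Most genes lie left of both lines, and the 3 members with only peaks of neighbouring genes are left out.

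Peaks placed in 5' UTRs were listed on the own exons of 11 members in control and of 8 after knockdown. Not all of them are near an annotated start: those of RPL30, RPS25 and, in control, RPL4 lay upstream of it. RPS14 had 2.61-fold in control and 9.30-fold after knockdown, and the knockdown peak ended at the annotated start itself, so that its 121 bases include the pyrimidine run printed above. RPL8 had 1.82-fold and 4.07-fold, RPS15 1.77-fold and 2.93-fold, and RPL7 2.74-fold and 5.08-fold. Other members had the lower value after knockdown. RPL26 had 3.32-fold and 2.55-fold, beginning 10 bases after the start, and RPS25 5.19-fold and 2.91-fold. RPL30 had 13.7-fold against 6.56-fold and 5.26-fold, and RPS29 7.13-fold against 4.65-fold and 4.25-fold. Over all genes the 5' UTR medians were 6.11-fold in control and 6.87-fold after knockdown.

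In the authors' deposited table of differential m6A peaks, 14 members had 15 peaks: 6 were higher and 9 lower after knockdown, where 55.4% of all 8687 differential peaks were higher and 44.6% lower. The values are log2 ratios of knockdown over control, turned from the deposited control over knockdown. The table holds no m6A value per library, so they carry no SD. Large-subunit genes had 5 higher and 3 lower, and small-subunit genes 1 higher and 6 lower. The difference between the subunits was not tested. By the authors' adjusted p of at most 0.05, 5 higher and 7 lower peaks passed, while 88.2% of all differential peaks passed. At an absolute log2 of at least 1, 2 were higher and 3 lower, where 63.4% of all such peaks were higher and 36.6% lower.

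In the same deposited table, RPS24 had the lowest value, -2.32 (adjusted p = 0.114), at the peak listed in control alone (chr10:78055373-78055523, 3' UTR of a retained-intron transcript). Its 13.6-fold knockdown peak upstream is not in that table, so 1 peak of RPS24 does not stand for the gene. RPS28 followed in the authors' deposited table at -1.36 (adjusted p = 0.112) and RPS27A at -1.07 (adjusted p = 0.00132, chr2:55235466-55235615, 3' UTR of a retained-intron transcript). The deposited values of RPL29 (-0.63), RPS25 (-0.62), RPS14 (-0.61, at its 3' UTR), RPL41 (-0.59), RPS18 (-0.53) and RPL39 (-0.45) were between these and 0, each with an adjusted p below 0.05.

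Among the higher peaks of the authors' deposited table, RPL14 had 2.27 (adjusted p = 0.104) at a peak about 9.9 kb after its start that is in the knockdown list alone (10.1-fold). RPL8 had 1.29 at its 5' UTR, RPS15 0.79 at its 5' UTR and RPL13 0.18 at its 3' UTR. RPL37 had 0.81 (adjusted p = 0.0347) at its distal 3' UTR peak (chr5:40825592-40825862) and 0.55 (adjusted p = 0.000589) at the proximal one (chr5:40827512-40828052). The values farthest from 0 in each direction, those of RPS24 and RPL14, did not pass the authors' adjusted p. Where a member's differential peak met a control peak alone it was lower after knockdown in 7 of 7 cases (98.0% over all genes). Where it met peaks in both lists the enrichments moved the same way in 7 of 7. Among these, the peak of RPL41 and the proximal peak of RPL37 met several peaks in a list. Over all genes the share was 91.6%, counted only where 1 peak was met in each list. The table and the lists come from the same libraries.

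**Figure D5:**
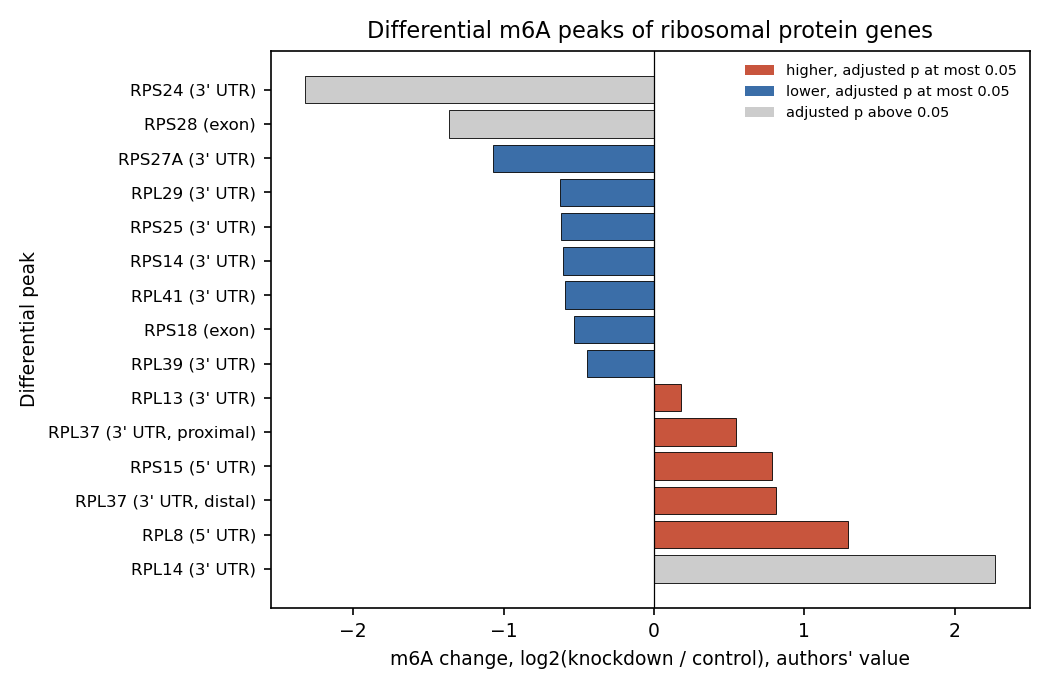
The authors' log2 ratio of m6A, knockdown over control, for the 15 differential peaks of 14 members, bars from 0, with the peak's position in brackets; grey bars have an adjusted p above 0.05. The 9 lower bars run from -2.32 (RPS24) to -0.45 (RPL39) and the 6 higher ones from 0.18 (RPL13) to 2.27 (RPL14).

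The peak assigned to RPS28 lies outside the RefSeq span of RPS28. Its control interval, chr19:8321158-8321397, is 99 to 338 bases upstream of the RefSeq start and has 11.5-fold enrichment in the control list under the symbol AC010323. Of its 240 bases, 218 (90.8%) fall in the span of NDUFA7, a gene for a subunit of respiratory complex I (chr19:8308595-8321375), and the differential interval lies wholly in it. The labels do not say whether reads were counted by strand, so the transcript that carried this peak cannot be told apart. The promoter window holds 152 bases of the peak (chr19:8321246-8321397), with 3 matches to GGAC, a core of the sequence that the m6A writer prefers, shown in capitals on the strand of RPS28.
First match (chr19:8321246-8321269): gcgggtcccGGACacacggagccc
Second match (chr19:8321301-8321324): cgcgcaccccGGACgcccagttcc
Last match (chr19:8321340-8321363): gacgggtggcGGACgccatcttcc
The other strand held 3 matches too. In the same stretch of all 35116 windows, 42.6% had at least 1 GGAC on the gene's strand, 66.5% on either strand, and 3.21% had as many as 3.

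Expression and m6A were measured on the same input libraries, so both sets of values share them and are only given side by side. For RPS28 the input change was -0.71 and the m6A value -1.36, for RPS24 -0.47 and -2.32, and for RPS27A -0.43 and -1.07. RPS18 had -0.21 and -0.53, and RPS14 -0.15 and -0.61. RPL41 had an input change of 0.00 with an m6A value of -0.59. RPL13 was lower in input at -0.16 with an m6A value of 0.18, and RPL8 had 0.01 and 1.29.

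Of the other genes of the pathway, 2 ribosomal proteins named outside the pattern had FPKM and neither was called. RACK1, a scaffold on the small subunit, was at 107 ± 5.08 FPKM (SD, n = 3) in control and at 112 ± 1.98 FPKM (SD, n = 3) after knockdown. Among 7 translation factors and other TOP mRNAs, 3 were called lower and none higher, against 37.9% and 24.5% of all genes tested: EIF3E, an initiation factor subunit (-0.42, adjusted p = 0.00109, limma), EIF3H, of the same complex (-0.32, adjusted p = 0.00111, limma), and PABPC1, the poly(A) binding protein (-0.13, adjusted p = 0.03, limma). EEF1A1, the elongation factor, was at 1008 ± 33.8 FPKM (SD, n = 3) and 925 ± 64.9 FPKM (SD, n = 3) and was not called. LARP1, which binds the TOP motif, was at 71.7 ± 1.43 FPKM (SD, n = 3) in control and at 70.7 ± 0.811 FPKM (SD, n = 3) after knockdown, with a change of -0.02 ± 0.04 (SE). MDM2, the p53 ubiquitin ligase that free RPL5 and RPL11 bind, was lower (4.25 ± 0.550 against 2.33 ± 0.0461 FPKM, SD, n = 3 each; limma, adjusted p = 0.000238). RPL5 had a peak of 3.36-fold in control and of 2.53-fold after knockdown, in the span of DIPK1A, and neither RPL5 nor RPL11 had FPKM here.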

How the data were processed

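Samples were grouped by their titles. The members, gene lists and tests were chosen with earlier results of these data known. Per the submitters' processing notes, the tools were HISAT2 2.0, StringTie 1.3.0 and Bowtie 0.12.2, with no roles given; the peak caller is not given in the sources used here. The notes name the build mm8, but identifiers and positions were human and are read as GRCh38. Starts in the peak files count from 0 and are printed from 1. FPKM per input library were computed by the authors, per the file headers, and each peak's fold (ratio of IP over input) with its log10 p scores was deposited by the authors. The authors' deposited differential table gives log2 ratios, p-values and the log10 of the adjusted p; 283 rows without a gene name were left out. FPKM were taken as log2(FPKM + 1) and tested with limma 3.58.1 (trend) in R 4.3.3 over the 4515 genes whose mean reached 1 FPKM; this scale understates changes of low genes. The script was tested on simulated data. Low FPKM showed no steps of whole reads (smallest above 0, 7.49e-07), so no count test was run. Peak lists were compared with bedtools 2.31.1 by exonic blocks of the same called gene (at least 1 bp). Every member with FPKM or a differential peak was named, then the 5 of highest enrichment per list, those in 1 list alone and the paralogs. Alternatives were other pseudocounts, filters, scalings, thresholds, a replicate block and leaving out each library.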

Additional observations from a re-analysis of the deposited data

How the results depend on the processing

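The number of members called lower (7) fell to 3 under median-centring and by the authors' deposited q, 3, and to between 4 and 7 without each library in turn (4 without control 1 or without knockdown 3). The number called higher (0) became 1 under quantile scaling, 1 under median-centring and 1 by the deposited q, which called 4 of 14 members against 48.9% of genes tested. Over all genes, calls lower after knockdown were 1712 of 4515 tested, and 773 of 2390 with a mean of at least 5 FPKM. With that filter 830 genes were called higher and the median change over all genes was 0.0042. The members then kept 7 lower and 0 higher. Log2 changes near 0 turned sign: RPL41 to -0.15, RPL8 to -0.052 and RPS15 to -5.13e-05 under quantile scaling, and RPL39 to 0.075 and RPS25 to 0.0027 under median-centring. Without each library, RPL39 ran from -0.072 to 0.014, RPL41 from -0.031 to 0.034, RPL8 from -0.023 to 0.075 and RPS15 from -0.022 to 0.10. RPS28, RPS24 and RPS27A were called lower under every setting, with adjusted p up to 0.000479, 0.00307 and 0.0238 (limma). The replicate block gave 7 members lower and 0 higher, and 1074 genes higher and 1673 lower against 1107 and 1712; same-numbered libraries did not deviate together (r of -0.08, 0.03 and 0.02), so the numbers were not taken as pairs. The 9 lower and 6 higher differential peaks became 3 and 2 at an absolute log2 of at least 1. The 65 control peaks became 25 at 4-fold, 38 at an adjusted p of at most 1e-05 and 30 on protein-coding transcripts; the 48 knockdown peaks became 25 at 4-fold and 22 on protein-coding transcripts. With 50% reciprocal overlap, 60.4% of the members' knockdown peaks were shared in place of 87.5%. Over all knockdown peaks the same rule gave 53.6% in place of 88.7%. The cause of these shifts was not tested beyond what the fewer peaks or samples give. Depth is unknown, and 1 peak list per condition allows no test between lists.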

Other observations

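Genes of ribosome assembly are set beside the ribosomal protein genes here, and the difference between the lists was not tested. The list was chosen with earlier results of these data known, and its genes with FPKM were selected by a differential m6A peak. Calls are for the values as deposited, without median-centring or quantile scaling. Of 15 assembly genes listed, 8 had FPKM, 6 were called higher after knockdown and 1 lower (limma, adjusted p under 0.05; background 24.5% higher and 37.9% lower). GRWD1, a chaperone of RPL3, was at 8.49 ± 0.735 FPKM in control and 14.6 ± 1.07 FPKM after knockdown (SD, n = 3 each; log2 change 0.72). NOP56, a core protein of the particles that methylate ribosomal RNA, was at 25.2 ± 1.43 and 40.3 ± 1.10 FPKM (SD, n = 3 each; log2 change 0.66). RRP12, RRS1, TSR1 and UTP4 were also higher, by 0.47, 0.42, 0.18 and 0.15 on the log2 scale. FBL, the methyltransferase of the same particles as NOP56, was lower (-0.15), and NCL was not called (0.11). In the authors' deposited table, 8 of the 9 differential m6A peaks of these genes were higher after knockdown, against 55.4% of all.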
